A study of Homo sapiens with 9 samples.

Results

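Transcripts of 47 genes of DNA repair and recombination were measured in SW480, an established line of human colorectal cancer cells, kept at 1% O2 for 48 h. The genes were listed by name, with earlier results of these data known, and fall into 6 roles. These are base excision repair (10 genes), mismatch repair (4), homologous recombination (17), the Fanconi pathway (6), damage checkpoints (6) and end joining (4). All 47 were found among the 41041 genes of the expression table. The 9 libraries of poly(A) RNA form 3 groups of 3 biological replicates, and every group was hypoxic. One group had no compound added (control). Another received sulforaphane (SFN), an isothiocyanate from cruciferous plants, at 25 µM. The last received SFN together with the pyrimidine analogue 5-fluorouracil, or 5-FU (SFN+5-FU). Neither the 5-FU dose nor the SFN dose of that last group is given in the sources used here. Hypoxia and treatment are both put at 48 h, and the sources do not say if compound was present all that time. Cells at normal oxygen and cells on 5-FU alone were not analysed here. A change with SFN+5-FU therefore cannot be divided between the agents.

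Repair genes answer different kinds of damage. In base excision repair a glycosylase removes a damaged or wrong base, such as uracil or fluorouracil, and an endonuclease, a polymerase and a ligase fill the gap, with PARP enzymes marking the break. Mismatch repair removes bases mispaired during replication. Homologous recombination copies a broken strand from the sister chromatid, mostly in S and G2 phase, while end joining ligates broken ends directly. The Fanconi pathway handles crosslinks and stalled forks, and the checkpoint kinases halt the cell cycle while damage persists. Many of these genes are known to be transcribed mostly in S phase.

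FPKM values scale the fragments of a gene by its length and by library size, so levels can be set beside each other between genes. The number of fragments behind a value is unknown, and the FPKM of a library summed to between 259184 and 272235. The label was checked against marker genes. EPCAM (114 to 144 FPKM) and KRT18 (618 to 936 FPKM) were high in every library. The 9 epithelial markers summed to 2552 to 2595 FPKM in control, 1767 to 2383 with SFN and 1707 to 1722 with SFN+5-FU, none of them at 0. CDH1 was at 12.7 to 15.4, 4.30 to 6.51 and 4.65 to 5.82 FPKM, KRT19 at 720 to 767, 442 to 560 and 421 to 435 FPKM and VIL1 at 3.71 to 3.98, 1.46 to 2.55 and 0.79 to 0.86 FPKM. Of the colonic markers, CDX2 was at 14.7 to 16.3 FPKM in control, 11.3 to 14.8 with SFN and 10.7 to 12.4 with SFN+5-FU. CDX1 (0.07 to 0.40 FPKM) and CEACAM5 (0.06 to 0.15 FPKM) were near 0. The leukocyte marker PTPRC and the endothelial marker CDH5 were listed at 0 in all 9 libraries. The 5 leukocyte markers summed to 3.16 to 3.64 FPKM in control, 4.19 to 9.10 with SFN and 6.48 to 10.1 with SFN+5-FU, mostly through CD68 (0.48 to 0.61, 2.05 to 5.57 and 5.59 to 8.96). The part of these epithelial and leukocyte shifts in the results below was not tested. The fibroblast and endothelial lists summed to at most 2.03 and 0.92 FPKM in any library. The library labelled SFN replicate 2 stood with the SFN+5-FU libraries. Across 12662 genes its Pearson correlation was 0.993 with each of these, and 0.963 to 0.968 with the other SFN libraries. Of the 43 repair genes tested, 38 (88.4%) lay nearer to the SFN+5-FU mean in that library than to the mean of SFN replicates 1 and 3, against 82.6% of all tested genes. It is kept in its labelled group, and values without it are given beside results that it changes. Mitochondrially encoded genes held 25.2% to 26.2% of the summed FPKM in control, 20.0% to 23.9% with SFN and 17.3% to 19.7% with SFN+5-FU.

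Most of the repair genes were higher than in control in both treated groups, and of the 6 roles homologous recombination had the largest median change. Genes with a mean of at least 1 FPKM were tested, which 43 of the 47 passed. BRIP1, FANCB, FANCM and ATM did not, and BRCA2 and NBN passed with control means under 1 FPKM. Calls, for which the words rise and fall are kept, were made at an adjusted p of 0.05 in limma on log2(FPKM + 1). With SFN, 27 of the 43 rose and 0 fell, against a background of 27.5% of all tested genes called higher and 22.5% called lower. At an unadjusted p under 0.05 in limma these counts were 30 and 0. That looser threshold was passed by 7237 of the 12662 tested genes, in either direction. The median log2 fold change of the 43 was 0.40, against 0.05 for all tested genes. With SFN+5-FU, 32 rose and 2 fell, against 38.3% called higher and 28.0% called lower, with a median of 0.56 against 0.10. With median-of-ratios scaling 25 and 28 repair genes rose and 0 and 2 fell, against 23.5% and 32.1% of all genes called higher and 26.1% and 32.8% lower. Both comparisons use the same control libraries, so their counts are not independent of each other. The 47 genes were chosen with earlier results of these data known. Their distance from the background is therefore a description and no independent support. Relative to the mean of control, the median of the 43 genes was 0.24, 0.55 and 0.40 for SFN replicates 1, 2 and 3, and 0.52, 0.56 and 0.47 in the SFN+5-FU libraries. Without SFN replicate 2, 27 genes rose with SFN (30.0% of all genes) and the median was 0.32. Without control replicate 2, 17 rose (20.8% of all genes). In a fit with no filter, which held all 47 genes, 22 rose and 0 fell with SFN, and 32 rose and 2 (CHEK2 and ATM) fell with SFN+5-FU. There 8.99% and 14.6% of 36755 genes were called higher and 10.4% and 14.0% lower. With mitochondrial genes left out of the scaling, 25 and 28 repair genes rose in the comparisons with control and 0 and 2 fell, against 22.9% and 31.9% of all genes higher and 26.4% and 32.6% lower. RNA here comes from bulk cells, so fewer cells of one kind and less RNA per cell cannot be told apart.

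**Figure D1:**
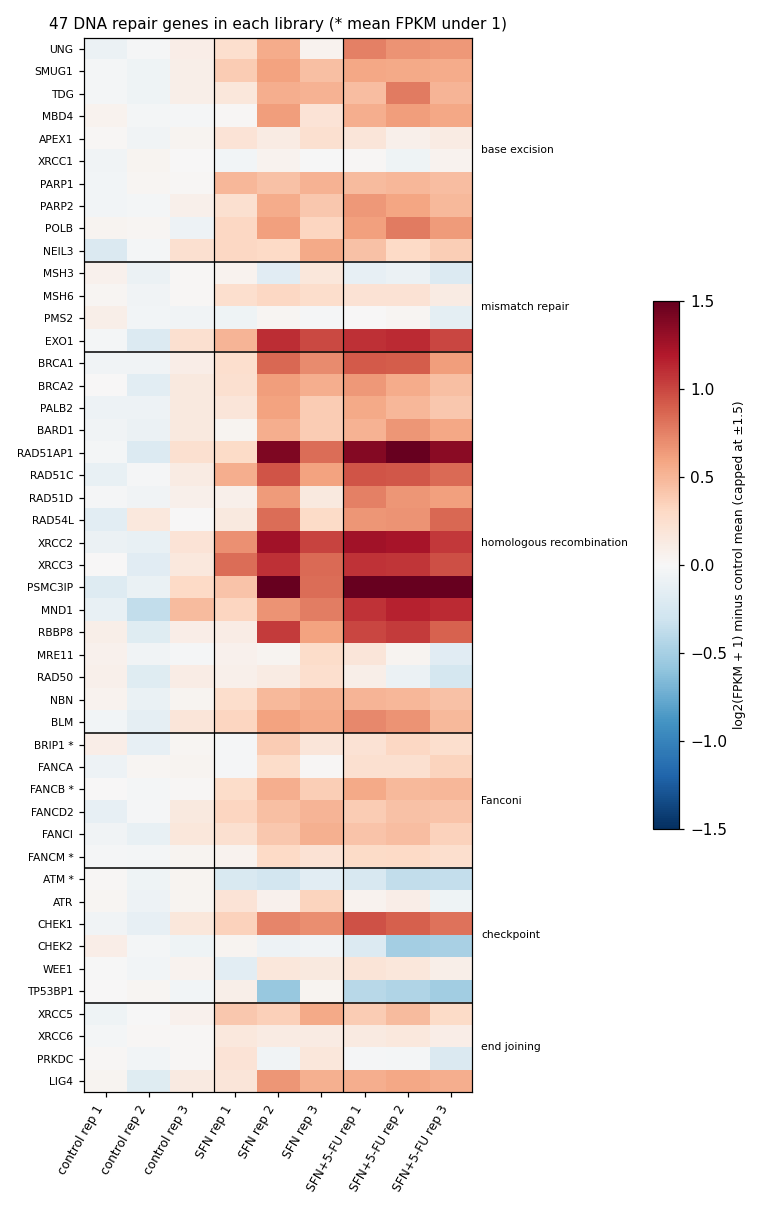
Each column is a library and each row a gene, ordered by role. Colour gives log2(FPKM + 1) minus the control mean, capped at 1.5 in either direction. The SFN+5-FU columns and SFN replicate 2 are darker red than SFN replicate 1 over the recombination genes, whose median differences were 0.63 to 0.75, 0.68 and 0.25.

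**Figure D2:**
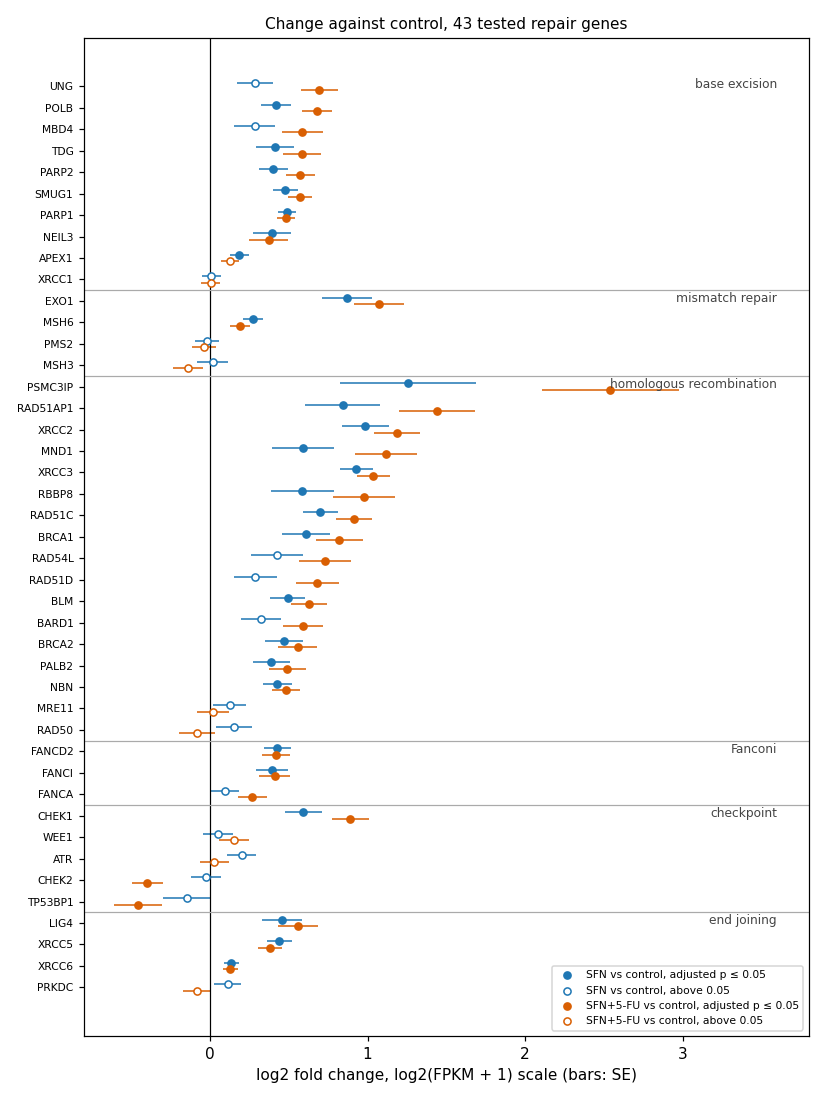
Points are log2 fold changes against control on the log2(FPKM + 1) scale with SE bars, for SFN (blue) and SFN+5-FU (orange). Filled points passed an adjusted p of 0.05. PSMC3IP lies farthest right, at 1.26 and 2.54, and CHEK2 and TP53BP1 are the orange filled points left of 0.

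Of the 10 base excision genes, 7 rose with SFN and 8 with SFN+5-FU, with medians of 0.40 and 0.57 (all tested genes: 27.5% and 38.3% higher, 0.05 and 0.10). After each library was corrected for GC content and transcript length, 3 and 7 of the 10 rose, with medians of 0.19 and 0.33, where 26.6% and 35.3% of all genes were called higher. UNG encodes the main uracil DNA glycosylase, which also removes fluorouracil from DNA. It was at 10.4, 10.9 and 12.0 FPKM in control, 13.4, 16.8 and 11.5 with SFN, and 19.5, 18.2 and 18.0 with SFN+5-FU. All SFN+5-FU libraries lay above all others, while the SFN libraries overlapped control. UNG rose by 0.69 on the log2 scale with SFN+5-FU (SE 0.117, adjusted p = 0.000767). With SFN its log2 fold change was 0.28 (adjusted p = 0.0689), 0.15 without SFN replicate 2, and 0.40 without SFN replicate 3, where it passed (adjusted p = 0.0148). The other glycosylases that act on uracil or thymine mispairs are SMUG1, TDG and MBD4. SMUG1 rose in both comparisons, by 0.48 and 0.57, from 6.38 ± 0.416 FPKM in control (mean ± SD, n = 3) to 9.30 ± 0.834 with SFN and 9.95 ± 0.0802 with SFN+5-FU. TDG rose by 0.41 and 0.58. For TDG the SFN call ended after the GC and length correction, and when control replicate 1, control replicate 2 or SFN replicate 3 was left out (adjusted p up to 0.0645). MBD4, a glycosylase for mispairs at methylated CpG sites, was at 10.3, 9.70 and 9.84 FPKM in control, 10.1, 15.9 and 11.6 with SFN, and 15.0, 16.0 and 15.4 with SFN+5-FU. SFN replicates 1 and 3 stood near control and SFN replicate 2 with the SFN+5-FU libraries. MBD4 rose by 0.59 with SFN+5-FU and had a log2 fold change of 0.28 with SFN (adjusted p = 0.098). The SFN value was 0.11 without SFN replicate 2 (adjusted p = 0.172) and 0.10 after the GC and length correction, and it was past the threshold without SFN replicate 1 (0.41) and with library weights.

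Downstream of the glycosylases, POLB encodes the polymerase that fills the gap. Its levels were 3.74, 3.69 and 3.38 FPKM in control, 4.72, 6.03 and 4.75 with SFN, and 6.06, 6.87 and 6.15 with SFN+5-FU. No treated library overlapped control. POLB rose by 0.42 and 0.68 (adjusted p = 0.00612 and 0.000286). After that correction the SFN value of POLB was 0.16 (adjusted p = 0.148). PARP1, the main poly(ADP-ribose) polymerase, was at 11.5, 12.1 and 11.9 FPKM in control, 17.1, 16.4 and 17.5 with SFN, and 16.8, 17.2 and 16.7 with SFN+5-FU. The 6 treated libraries lay close together and above control, SFN replicate 2 included. PARP1 rose by 0.49 with SFN (SE 0.0564, adjusted p = 0.000177) and by 0.48 with SFN+5-FU (adjusted p = 0.00011). PARP2, its smaller relative, rose by 0.40 and 0.57. NEIL3, a glycosylase for oxidised bases and crosslinks, rose by 0.39 and 0.37, but these fell to 0.18 and 0.05 after the GC and length correction and neither call then held (adjusted p = 0.238 and 0.712). APEX1, the abasic site endonuclease and the most abundant of the 10 (53.8 ± 1.72 FPKM in control), rose by 0.19 with SFN (adjusted p = 0.0248). That call was lost in 8 of 21 alternatives, and with SFN+5-FU the value was 0.13 (adjusted p = 0.0798), past the threshold in 3 alternatives, among them without SFN replicate 2 (adjusted p = 0.0266). XRCC1, the scaffold of this pathway, was at 16.3 ± 0.566, 16.4 ± 0.545 and 16.4 ± 0.664 FPKM in the 3 groups.

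The sequence before a start of UNG is shown because UNG had the largest increase of the 10 genes with SFN+5-FU and holds matches to 4 of 5 motifs searched. RefSeq windows of GRCh38.p14 were matched to 40 of the 47 genes (60 windows, since some genes have several starts), and the 250 bases before each start were searched on both strands. For E2F the letters were TTTCCCGC, TTTGGCGC, TTTCGCGC and TTTGCCGC. The CCAAT box was searched as it is named. The CHR element of cell cycle genes was searched as TTTGAA and the E-box as CACGTG. For the core of the antioxidant element the letters were TGACNNNGC. Where a gene has several windows, the one that matches the most motifs is printed, so its matches are not typical of all starts. Windows are printed 5′ to 3′ on the gene's strand in lower case with matches in capitals, and bases that GENCODE 29 annotates as untranslated exon are left out.
UNG, the downstream of its RefSeq starts, chr12:109097922-109098117, + strand: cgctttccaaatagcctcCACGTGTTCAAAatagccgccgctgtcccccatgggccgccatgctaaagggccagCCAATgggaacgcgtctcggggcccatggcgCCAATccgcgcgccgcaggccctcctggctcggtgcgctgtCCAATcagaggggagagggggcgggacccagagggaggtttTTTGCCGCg
The window runs from 250 to 55 bases before the start. Its matches begin, in that order, 232 (CACGTG), 226 (TTTGAA, on the other strand, where the printed letters are TTCAAA), 176, 145 and 104 (CCAAT) and 63 bases (TTTGCCGC) before the start, and none shares bases with another. A match describes letters and shows no binding.

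Mismatch repair genes split. Of 4, EXO1 and MSH6 rose in both comparisons and none fell, with medians of 0.14 and 0.08. For all tested genes 27.5% and 38.3% were called higher, and the medians were 0.05 and 0.10. EXO1, the exonuclease that excises the mismatched strand and also resects breaks, was at 4.05, 3.49 and 5.08 FPKM in control, 6.34, 10.2 and 9.27 with SFN, and 10.1, 10.3 and 9.32 with SFN+5-FU. Control was lowest, SFN replicate 1 intermediate, and the other 5 treated libraries lay between 9.27 and 10.3. EXO1 rose by 0.87 (SE 0.160, adjusted p = 0.00198) and 1.07 (adjusted p = 0.000389), in all 21 alternatives of each. MSH6, which recognises single mismatches, was at 5.17, 4.81 and 5.11 FPKM in control, 6.20, 6.45 and 6.21 with SFN, and 6.02, 6.03 and 5.59 with SFN+5-FU. Treated libraries did not overlap control, and the SFN+5-FU libraries lay below the SFN libraries. MSH6 rose by 0.27 with SFN and by 0.19 with SFN+5-FU. The second of these calls was lost in 7 alternatives, among them median-of-ratios scaling (0.10, adjusted p = 0.193), and without control replicate 1, control replicate 2, SFN+5-FU replicate 1 or SFN+5-FU replicate 2. MSH3, which recognises small loops, was at 3.16, 2.74 and 3.01 FPKM in control, 3.11, 2.52 and 3.46 with SFN, and 2.63, 2.72 and 2.44 with SFN+5-FU. The SFN values spread around control and the SFN+5-FU values lay just below it. On the log2 scale MSH3 differed from control by 0.02 and -0.14 (adjusted p = 0.901 and 0.22). The second was past the threshold after the GC and length correction, at -0.30 (adjusted p = 0.0258), and with library weights. PMS2, an endonuclease of this pathway, was at 3.26 ± 0.217, 3.21 ± 0.136 and 3.15 ± 0.264 FPKM. After the GC and length correction its SFN+5-FU value was called lower (-0.18, adjusted p = 0.0444), so that 2 of the 4 genes then fell. Among pseudogenes named after PMS2, 7 had a mean of at least 1 FPKM in these libraries (1.49 to 5.46). Sharing of reads with them was not tested, so the PMS2 value is uncertain.

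Homologous recombination held the largest changes. All 17 of its genes were tested. With SFN 12 rose and with SFN+5-FU 15 rose, none fell in either, and the medians were 0.49 and 0.73. Of all tested genes, 27.5% and 38.3% were called higher and 22.5% and 28.0% lower, with medians of 0.05 and 0.10. PSMC3IP (HOP2) and MND1 form a heterodimer that stimulates strand exchange, also in meiosis. PSMC3IP was at 3.68, 3.99 and 5.59 FPKM in control, 6.22, 29.4 and 8.56 with SFN, and 28.9, 30.7 and 31.0 with SFN+5-FU. The SFN+5-FU libraries and SFN replicate 2 lay between 28.9 and 31.0, and SFN replicates 1 and 3 just above control. PSMC3IP rose by 2.54 with SFN+5-FU (SE 0.434, adjusted p = 0.000825). With SFN the change was 1.26 (SE 0.434, adjusted p = 0.0372), and 0.63 without SFN replicate 2 (adjusted p = 0.00702). The SFN call was lost in 10 of 21 alternatives (adjusted p up to 0.105), among them without any 1 control or any 1 SFN+5-FU library. MLX, on the opposite strand and overlapping PSMC3IP, rose by 0.54 and 0.57. MLX was at 23.9, 25.2 and 25.0 FPKM in SFN replicates 1, 2 and 3. The libraries keep strand, per the labels' protocols, but whether the counting used it is not given in the sources used here. The part of MLX reads in PSMC3IP was not tested. The same holds for the other overlapping genes named below, and for APEX1, MSH3, MSH6, RAD54L, MRE11, NBN, FANCA, FANCI and TP53BP1, which also overlap expressed genes.

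MND1 was at 2.33, 1.79 and 4.0 FPKM in control, 3.51, 4.75 and 5.14 with SFN, and 6.63, 6.98 and 6.82 with SFN+5-FU. SFN+5-FU was highest without overlap, and SFN replicate 1 lay below control replicate 3. MND1 rose by 0.59 (adjusted p = 0.0315) and 1.12 (adjusted p = 0.00095). The SFN call was lost in 7 of 20 alternatives, among them without SFN replicate 2 (0.55, adjusted p = 0.0578), SFN replicate 3, control replicate 1 or control replicate 2. RAD51AP1, which promotes D-loop formation, was at 8.63, 7.56 and 10.6 FPKM in control, 11.1, 25.0 and 16.7 with SFN, and 24.6, 28.8 and 24.2 with SFN+5-FU. SFN replicate 2 again stood with SFN+5-FU, and SFN replicate 1 was close to control. RAD51AP1 rose by 0.84 with SFN (0.57 without SFN replicate 2, and adjusted p = 0.0606 without control replicate 2) and by 1.44 with SFN+5-FU (SE 0.239, adjusted p = 0.000694). RAD54L, a motor protein that acts on chromatin during strand exchange, rose by 0.73 with SFN+5-FU, and its SFN value of 0.43 did not pass (adjusted p = 0.0577). The SFN value of RAD54L was past the threshold in 5 of 21 alternatives, among them the one corrected for GC and length (0.41) and the one that leaves out SFN replicate 1 (0.56), and without SFN replicate 2 it was 0.22 (adjusted p = 0.0971).

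XRCC2, XRCC3, RAD51C and RAD51D are related genes whose products act together in complexes. XRCC3, which pairs with RAD51C, was at 4.24, 3.66 and 4.86 FPKM in control, 8.38, 10.1 and 8.46 with SFN, and 10.1, 9.96 and 9.19 with SFN+5-FU. Every treated library lay above every control library. XRCC3 rose by 0.93 (SE 0.102, adjusted p = 0.000143) and by 1.04 (SE 0.102, adjusted p = 4.74e-05), and in all 21 alternatives of each. XRCC2, which pairs with RAD51D, was at 2.24, 2.18 and 2.97 FPKM in control, 4.55, 7.26 and 5.93 with SFN, and 7.27, 7.11 and 6.18 with SFN+5-FU. Again no treated library overlapped control, and SFN replicate 1 was the lowest of the 6. XRCC2 rose by 0.99 and 1.19 (adjusted p = 0.000646 and 0.000147), also in all 21 alternatives. RAD51C rose by 0.70 and 0.91. RAD51D, at 1.09 ± 0.0971, 1.59 ± 0.575 and 2.35 ± 0.163 FPKM, rose by 0.68 with SFN+5-FU, while its SFN value of 0.29 did not pass (adjusted p = 0.11). It was 0.11 without SFN replicate 2, and was past the threshold without SFN replicate 1 (0.39, adjusted p = 0.04), with GC and length corrected (0.43, adjusted p = 0.0392), and with library weights. KLC1 overlaps XRCC3 on the opposite strand, with log2 fold changes of 0.06 and 0.22.

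The windows before PSMC3IP and XRCC3 are shown because these genes had the largest increase with SFN+5-FU and the lowest adjusted p in both comparisons with control.
PSMC3IP, chr17:42577832-42578081, - strand, 250 to 1 bases before the start: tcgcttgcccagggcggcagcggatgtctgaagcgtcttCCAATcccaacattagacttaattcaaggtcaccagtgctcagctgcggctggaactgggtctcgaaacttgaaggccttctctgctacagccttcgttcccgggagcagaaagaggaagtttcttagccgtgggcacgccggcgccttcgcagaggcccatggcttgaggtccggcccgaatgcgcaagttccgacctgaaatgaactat
XRCC3, chr14:103715505-103715701, - strand, 250 to 54 bases before the start: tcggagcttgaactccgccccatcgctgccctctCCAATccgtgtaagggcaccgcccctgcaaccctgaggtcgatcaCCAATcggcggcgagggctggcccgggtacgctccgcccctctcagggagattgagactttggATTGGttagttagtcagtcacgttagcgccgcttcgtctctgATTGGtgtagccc
PSMC3IP holds 1 CCAAT match, 211 bases before the start. XRCC3 holds 4, beginning 216, 171, 108 and 66 bases before it, of which the last 2 are on the other strand and read ATTGG. These windows held no match to the other 4 motifs.

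**Figure D3:**
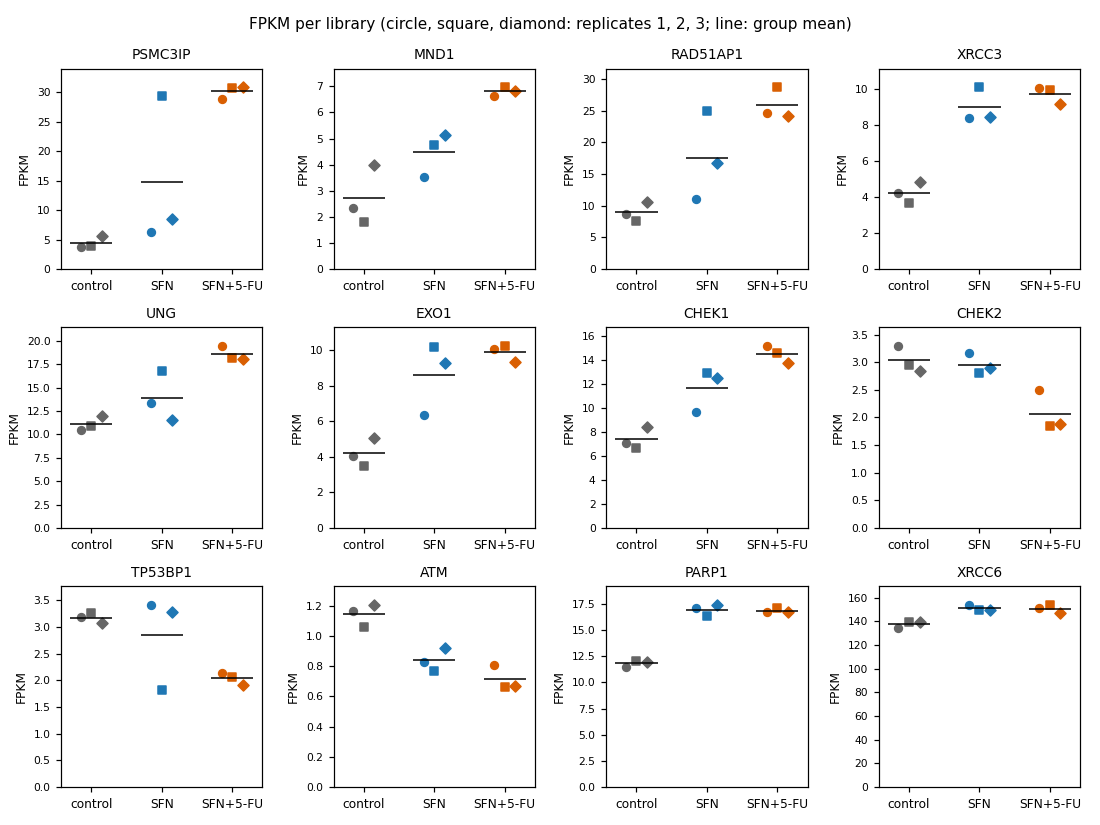
Each panel shows the FPKM of 1 gene in 9 libraries, with circles, squares and diamonds for replicates 1, 2 and 3 and a line at the group mean, on axes that start at 0. For PSMC3IP the SFN square (29.4) lies level with SFN+5-FU, whereas for PARP1 all treated libraries lie together (16.4 to 17.5).

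BRCA1 and BRCA2 are both among the 17 recombination genes. BRCA1, a ubiquitin ligase with BARD1, was at 1.79, 1.77 and 2.10 FPKM in control, 2.44, 4.22 and 3.72 with SFN, and 4.46, 4.42 and 3.47 with SFN+5-FU. Treated and control libraries did not overlap. BRCA1 rose by 0.61 and 0.82 (adjusted p = 0.00915 and 0.00126). BRCA2, which acts on single-stranded DNA, was at 0.87, 0.67 and 1.06 FPKM in control, 1.19, 1.87 and 1.72 with SFN, and 1.93, 1.74 and 1.55 with SFN+5-FU. It lay above control in all 6 treated libraries, at low levels, and rose by 0.47 and 0.56. PALB2, the bridge between the BRCA proteins, rose by 0.39 and 0.49. Leaving out control replicate 1 or 2 ended its SFN call (adjusted p = 0.0749 and 0.0731), as did dropping the filter or fitting only the 6 libraries compared. BARD1 rose by 0.59 with SFN+5-FU and had 0.32 with SFN (adjusted p = 0.0608). That SFN value was 0.21 without SFN replicate 2 (adjusted p = 0.142) and 0.46 without SFN replicate 1 (adjusted p = 0.00594), and it passed in 3 of 20 alternatives. NBR2 overlaps BRCA1 on the opposite strand and fell by 0.32 and 0.40.

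Resection of the broken end starts with the MRE11, RAD50 and NBN complex and its cofactor CtIP, encoded by RBBP8. RBBP8 was at 6.92, 5.58 and 6.98 FPKM in control, 7.06, 14.4 and 10.3 with SFN, and 14.0, 14.4 and 12.7 with SFN+5-FU. SFN replicate 2 was level with the SFN+5-FU group, and SFN replicate 1 just above control. RBBP8 rose by 0.98 with SFN+5-FU (adjusted p = 0.0021). With SFN it was called at 0.59 (adjusted p = 0.0341), but not in 9 of 21 alternatives, among them without SFN replicate 2 (0.36, adjusted p = 0.0563), SFN replicate 3, SFN+5-FU replicate 1 or any 1 control library. NBN, the damage sensor of the complex, rose by 0.43 and 0.48 from 0.833 ± 0.107 FPKM. Its partners moved less: MRE11 was at 3.70 ± 0.196, 4.14 ± 0.465 and 3.79 ± 0.576 FPKM and RAD50 at 3.36 ± 0.475, 3.83 ± 0.314 and 3.12 ± 0.505 FPKM. Neither was called (adjusted p = 0.344 and 0.302 with SFN, and 0.882 and 0.531 with SFN+5-FU). BLM, the helicase that dissolves recombination intermediates, rose by 0.49 and 0.63.

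Of the 6 Fanconi pathway genes, 3 reached the expression threshold. FANCD2 and FANCI form the heterodimer that is ubiquitinated at crosslinks. FANCD2 was at 1.52, 1.70 and 2.03 FPKM in control, 2.44, 2.74 and 2.90 with SFN, and 2.57, 2.72 and 2.69 with SFN+5-FU. FANCI was at 4.16, 3.95 and 5.00 FPKM in control, 5.31, 6.10 and 6.73 with SFN, and 6.19, 6.36 and 5.78 with SFN+5-FU. In both, treated libraries lay above control, and SFN and SFN+5-FU overlapped. FANCD2 rose by 0.43 and 0.42 (adjusted p = 0.00354 and 0.00263) and FANCI by 0.39 and 0.41 (adjusted p = 0.0102 and 0.00568). FANCA, of the core ubiquitin ligase complex, rose by 0.27 with SFN+5-FU, a call lost in 7 of 20 alternatives, among them without control replicate 1 (adjusted p = 0.0918) or any 1 SFN+5-FU library. Its SFN value passed in 1 alternative, with GC and length corrected (0.23, adjusted p = 0.0455). FANCB, of the same complex, was at 0.40, 0.37 and 0.41 FPKM in control, 0.68, 1.03 and 0.80 with SFN, and 1.07, 0.95 and 0.96 with SFN+5-FU. All its treated libraries lay above control at these low levels. In the fit without the filter FANCB rose by 0.39 and 0.52 (adjusted p = 0.0162 and 0.00314). The translocase gene FANCM rose by 0.28 with SFN+5-FU in that fit (adjusted p = 0.0214), from 0.243 ± 0.0321 to 0.510 ± 0.0265 FPKM. The helicase gene BRIP1, at 0.557 ± 0.117, 0.770 ± 0.245 and 0.860 ± 0.0656 FPKM, was not called there (adjusted p = 0.371 and 0.143).

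The checkpoint genes called with SFN+5-FU moved in opposite directions. Of 5 tested, CHEK1 rose in both comparisons, and CHEK2 and TP53BP1 fell with SFN+5-FU. Of all tested genes, 27.5% and 38.3% were called higher with SFN and SFN+5-FU, and 22.5% and 28.0% lower. The share of the 5 called higher was 20% in each comparison, and 5 genes are too few to set the role apart from all genes. CHEK1, the effector kinase below ATR, was at 7.06, 6.68 and 8.42 FPKM in control, 9.63, 12.9 and 12.5 with SFN, and 15.2, 14.6 and 13.7 with SFN+5-FU. Treated libraries lay above control, and SFN+5-FU above SFN. CHEK1 rose by 0.59 (SE 0.116, adjusted p = 0.00277) and by 0.89 (SE 0.116, adjusted p = 0.000186). CHEK2, the effector kinase below ATM, was at 3.30, 2.95 and 2.85 FPKM in control, 3.16, 2.81 and 2.90 with SFN, and 2.49, 1.84 and 1.88 with SFN+5-FU. SFN libraries overlapped control and SFN+5-FU libraries were lower than all others. CHEK2 fell by 0.40 with SFN+5-FU (SE 0.0966, adjusted p = 0.00541), in all 20 alternatives, and with SFN the value was -0.03 (adjusted p = 0.83). HSCB overlaps CHEK2 on the opposite strand and rose by 0.31 and 0.64. STT3A overlaps CHEK1 on the same strand, with log2 fold changes of 0.11 and 0.07.

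The window before CHEK1 is shown because CHEK1 was the checkpoint gene that rose.
CHEK1, chr11:125626035-125626228, + strand, 194 to 1 bases before the start: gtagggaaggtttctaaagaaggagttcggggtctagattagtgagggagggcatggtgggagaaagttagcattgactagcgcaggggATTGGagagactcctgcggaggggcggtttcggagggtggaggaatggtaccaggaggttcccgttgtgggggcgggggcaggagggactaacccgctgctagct
It holds 1 CCAAT match on the other strand, 105 bases before the start, and no match to the other motifs.

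TP53BP1 encodes 53BP1, which protects broken ends from resection. It was at 3.18, 3.27 and 3.07 FPKM in control, 3.42, 1.82 and 3.28 with SFN, and 2.14, 2.06 and 1.91 with SFN+5-FU. SFN replicates 1 and 3 lay with control and SFN replicate 2 with SFN+5-FU. TP53BP1 fell by 0.46 with SFN+5-FU (SE 0.153, adjusted p = 0.0242). That call was lost in 7 of 20 alternatives, among them the correction for GC and length (-0.29, adjusted p = 0.0956), and also leaving out any 1 control library, SFN+5-FU replicate 2 or SFN+5-FU replicate 3. Without SFN replicate 2, which narrows the shared spread, its adjusted p was 9.46e-05. ATM, the kinase activated by double-strand breaks, was at 1.17, 1.06 and 1.21 FPKM in control, 0.83, 0.77 and 0.92 with SFN, and 0.81, 0.66 and 0.67 with SFN+5-FU. Each treated library lay below each control library, at levels near the filter. In the fit with no filter ATM had log2 fold changes of -0.22 (adjusted p = 0.0881) and -0.33 (adjusted p = 0.0144), so that ATM fell with SFN+5-FU there. NPAT, which overlaps ATM on the opposite strand, rose by 0.43 and 0.60. ATR, the kinase activated at stalled forks, was at 1.31, 1.15 and 1.33 FPKM in control, 1.60, 1.37 and 1.85 with SFN, and 1.34, 1.42 and 1.16 with SFN+5-FU. The SFN libraries lay just above control and the SFN+5-FU libraries overlapped it, with log2 fold changes of 0.20 and 0.03 (adjusted p = 0.0919 and 0.809). The first of these was past the threshold without SFN replicate 2 (adjusted p = 0.0228). WEE1, the kinase that holds CDK1 inactive, was at 3.54, 3.44 and 3.75 FPKM in control, 3.10, 4.15 and 4.06 with SFN, and 4.24, 4.14 and 3.88 with SFN+5-FU. The SFN libraries overlapped control and the SFN+5-FU libraries lay just above it. WEE1 had log2 fold changes of 0.05 and 0.15 (adjusted p = 0.667 and 0.184). The second was past the threshold with only the 6 libraries compared (adjusted p = 0.0418) and with library weights (0.0212), and was -0.01 after the GC and length correction.

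End joining genes included the most abundant of the 47. XRCC5 and XRCC6 encode Ku80 and Ku70, which cap broken ends. XRCC5 was at 72.7, 76.2 and 80.1 FPKM in control, 101, 97.6 and 114 with SFN, and 99.7, 106 and 93.4 with SFN+5-FU. All 6 treated libraries lay above control, and XRCC5 rose by 0.44 and 0.38 (adjusted p = 0.00153 and 0.00208). XRCC6 was at 135, 139 and 139 FPKM in control, 154, 150.0 and 149.9 with SFN, and 151, 154 and 147 with SFN+5-FU. It too lay above control in each treated library, by a small amount. Its increases of 0.14 and 0.13 (adjusted p = 0.0462 and 0.044) were lost in 17 and 13 of 21 alternatives, and with quantile normalization the direction turned (-0.0023 and -0.02). PRKDC, the catalytic subunit of DNA-PK that Ku recruits, was at 10.5, 10.0 and 10.5 FPKM in control, 12.1, 9.96 and 11.8 with SFN, and 10.2, 10.1 and 8.76 with SFN+5-FU. Groups overlapped, and PRKDC had log2 fold changes of 0.11 and -0.09 (adjusted p = 0.312 and 0.406). Its SFN value was past the threshold in the fit corrected for GC and length (0.23, adjusted p = 0.0172), and likewise when SFN replicate 2 was left out (0.19, adjusted p = 0.0421). LIG4, the ligase of this pathway, was at 1.58, 1.21 and 1.76 FPKM in control, 1.84, 2.95 and 2.62 with SFN, and 2.67, 2.76 and 2.65 with SFN+5-FU. Treated libraries did not overlap control. LIG4 rose by 0.46 (adjusted p = 0.0161, and 0.0648 without control replicate 2 or 0.0503 without SFN replicate 3) and by 0.56 (adjusted p = 0.00416).

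No repair gene passed the test between SFN+5-FU and SFN over all 9 libraries. In limma 1 of the 12662 genes did (0.00790%), with 3982 at an unadjusted p under 0.05, among them 10 of the 43 repair genes. This outcome rests on SFN replicate 2. That library was singled out because it stood with the SFN+5-FU libraries. Larger differences and lower p values without it follow in part from that choice and are no independent support. Without SFN replicate 2, 13 repair genes were higher with SFN+5-FU and 5 lower, against a background of 29.8% and 21.4% of all tested genes, with a median of 0.19 against 0.05. The share called higher was therefore near that of all genes. Weights that lower the influence of variable libraries gave 16 higher and 7 lower, against 33.4% and 25.3%. PSMC3IP differed most, by 1.28 over all libraries (adjusted p = 0.134) and 1.91 without SFN replicate 2 (adjusted p = 3.65e-05). RAD51AP1 gave 0.60 and 0.87, RBBP8 0.39 and 0.62, and UNG 0.41 and 0.54, each called in the second fit. With library weights these 3 were called over all 9 libraries too. The 13 held 4 base excision genes (UNG, MBD4, PARP2 and POLB) and 7 recombination genes. The 5 lower ones were TP53BP1 (-0.52), CHEK2 (-0.40), PRKDC (-0.28), MSH3 (-0.25) and ATR (-0.24). Over all 9 libraries 4 tested repair genes (UNG, POLB, MND1 and CHEK1) had all SFN+5-FU values above all SFN values, against a background of 10.6%, and MSH6 and CHEK2 had all below, against 10.3%. PARP1 had a difference of -0.01 in the first fit and -0.03 in the second. XRCC2, XRCC3 and EXO1, large against control, differed by 0.20, 0.11 and 0.20 over all libraries, and by 0.34, 0.19 and 0.32 without SFN replicate 2, none called.

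**Figure D4:**
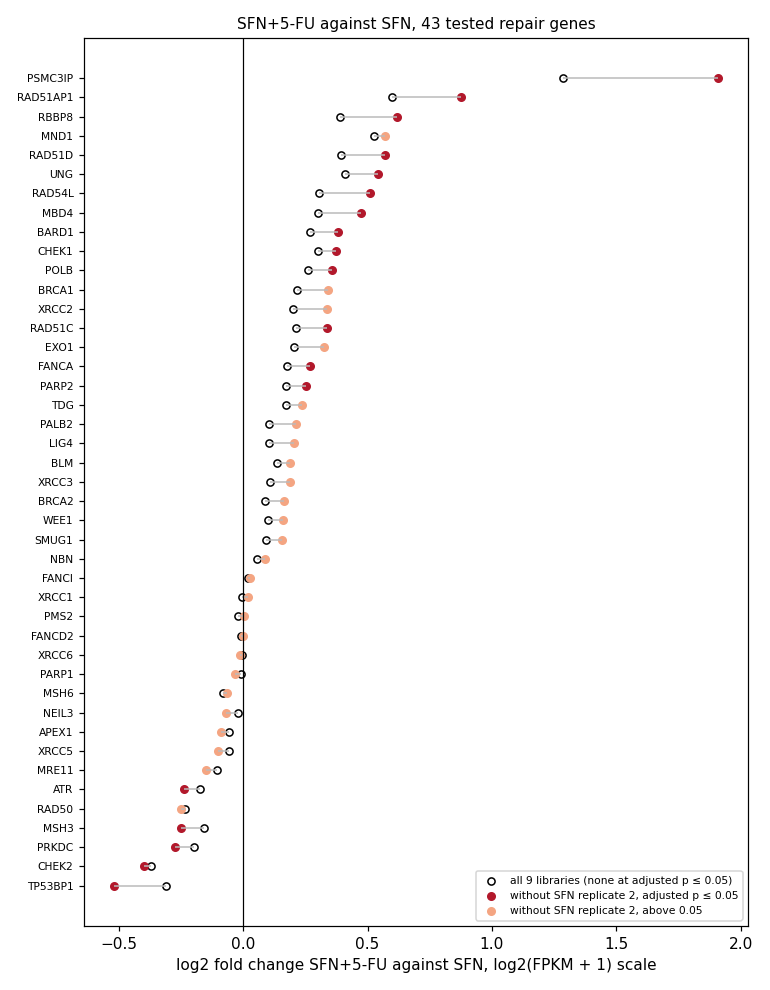
For each of 43 repair genes the open circle is the log2 difference between SFN+5-FU and SFN over all 9 libraries and the filled circle the value without SFN replicate 2, dark red where called. Filled circles lie farther from 0 than open ones at both ends, from 1.91 for PSMC3IP to -0.52 for TP53BP1. This follows in part from leaving out the SFN library that stood with SFN+5-FU.

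Ratios between partner genes within a library do not depend on how libraries are scaled. For 11 pairs an exact permutation test, two-sided, compared the ratios between groups. With 3 libraries against 3 this exact test cannot go below p = 0.1, and over the 33 exact tests the smallest adjusted p was 0.183, so none can pass. CHEK1/CHEK2 was 2.14, 2.26 and 2.95 in control, 3.05, 4.59 and 4.31 with SFN, and 6.10, 7.93 and 7.30 with SFN+5-FU. All 3 groups were separate in that ratio. PSMC3IP/MND1 was 1.58, 2.23 and 1.40 in control, 1.77, 6.20 and 1.67 with SFN, and 4.36, 4.40 and 4.54 with SFN+5-FU. Only SFN replicate 2 departed from control among the SFN libraries. PSMC3IP is the numerator, so a higher ratio in the libraries where PSMC3IP was high is no separate result. RAD51D/XRCC2 was 0.478, 0.463 and 0.404 in control, 0.264, 0.310 and 0.223 with SFN, and 0.348, 0.326 and 0.358 with SFN+5-FU, with no overlap between any groups. XRCC5/XRCC6 was 0.540, 0.548 and 0.575 in control, 0.654, 0.651 and 0.759 with SFN, and 0.660, 0.692 and 0.634 with SFN+5-FU, higher in every treated library than in control. MSH6/MSH3 was 1.64, 1.76 and 1.70 in control, 1.99, 2.56 and 1.79 with SFN, and 2.29, 2.22 and 2.29 with SFN+5-FU, with SFN replicate 2 the highest. RAD51C/XRCC3 had mean ratios of 0.504, 0.455 and 0.501 and FANCD2/FANCI of 0.401, 0.447 and 0.436 in control, SFN and SFN+5-FU. The pairs BRCA1/BARD1 (0.993, 1.29 and 1.22) and BRCA2/PALB2 (0.427, 0.535 and 0.537) were higher in every treated library than in control. MRE11/RAD50 (1.11, 1.08 and 1.22) and PARP1/PARP2 (2.73, 2.83 and 2.44) overlapped control in both treated groups.

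Other genes of the same pathways, taken from lists by role, had a smaller median change as a whole, but not in every role. Of 80 such genes tested, 37 rose and 5 fell with SFN (median 0.25), and 45 rose and 9 fell with SFN+5-FU (median 0.34). Among all tested genes 27.5% and 38.3% were called higher and 22.5% and 28.0% lower, with medians of 0.05 and 0.10. Other recombination genes rose in 16 and 17 of 27 and fell in 1 and 2, led by MCM8 (0.77) with SFN and SFR1 (1.14) with SFN+5-FU. Checkpoint genes outside the 47 rose in 10 and 12 of 18, led by TIPIN (1.20) with SFN and CLSPN (1.89) with SFN+5-FU, both partners of forks and ATR signalling. Other base excision genes were mixed, with 5 and 6 of 16 higher (31.25% and 37.5%, near the shares of all tested genes) and 4 and 4 lower. Of 13 other Fanconi genes, 3 and 7 rose and 0 and 2 fell. Nucleotide excision repair genes rose in 6 and 7 of 16 (37.5% and 43.75%) and fell in 2 and 2. Their medians were 0.13 and 0.10, the second close to that of all tested genes. The medians of the 43 repair genes (0.40 and 0.56) lay above those of the 80. By role this held for base excision, homologous recombination and the Fanconi pathway. The order was the reverse for checkpoint genes, where the other 18 had medians of 0.37 and 0.50 against 0.05 and 0.03. It was also the reverse for mismatch repair (0.28 and 0.22 over 2 other genes, against 0.14 and 0.08) and end joining (0.32 and 0.32 over 4 others, against 0.29 and 0.25). The 47 were not drawn at random from their pathways.

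S phase genes moved with the repair genes. Of 31 genes of DNA replication 25 rose and 0 fell in each comparison, with medians of 0.55 and 0.69. The shares over all tested genes were 27.5% and 38.3% called higher and 22.5% and 28.0% lower. Relative to control the library medians of the replication genes were 0.37, 0.67 and 0.54 in SFN replicates 1, 2 and 3 and 0.68 to 0.72 with SFN+5-FU. Mitosis genes moved differently with SFN+5-FU, where 5 of 22 rose and 6 fell. With SFN 6 rose (27.3%, near the share of all tested genes) and 0 fell. Without SFN replicate 2, where 30.0% of all tested genes were called higher, 14 mitosis genes rose, with a median of 0.39 (repair genes: 27 of 43 and 0.32). Their library medians were 0.22, 0.00 and 0.55 for SFN replicates 1, 2 and 3 and -0.12 to 0.02 with SFN+5-FU. The part of cell cycle phase in the repair gene changes was not tested.

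Across the 43 repair genes the fold change was lower for longer transcripts. Spearman's rho with the longest annotated transcript was -0.23 with SFN and -0.35 with SFN+5-FU over these 43 genes, which share the libraries and are not independent. Over 12504 genes it was -0.15 and -0.14. After the GC and length correction the values for the 43 were 0.05 and -0.16. The correction takes out a fit on length in each library, so a weaker rho follows in part from it. The medians fell to 0.28 and 0.35, and 23 and 30 genes were called higher, against 26.6% and 35.3% of all genes. MND1 went from 1.12 to 0.73, RAD51AP1 from 1.44 to 1.03 and PSMC3IP from 2.54 to 2.36 with SFN+5-FU, and XRCC3 from 1.04 to 1.24. The low points CHEK2 and TP53BP1 were at -0.53 and -0.29.

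**Figure D5:**
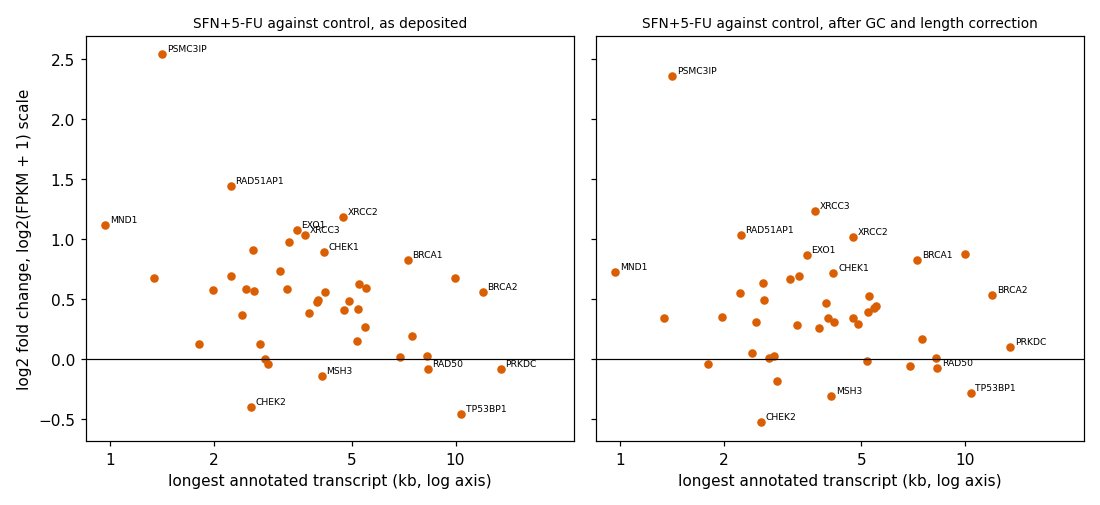
Each point is 1 of 43 repair genes, with the length of its longest annotated transcript in kb (log axis) and its log2 fold change with SFN+5-FU against control, as deposited (left) and after the GC and length correction (right). The relation to length is weaker on the right, where rho is -0.16 in place of -0.35. This follows in part from the correction, which takes out a fit on length.

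Over the 60 windows of the repair genes, CCAAT was present in 53.3%, against 32.0% of all 35116 windows. The E2F letters were in 10% (6 windows of FANCA, MND1, MSH3, PMS2 and UNG) against 2.79%. TTTGAA was in 8.33% against 13.3%, CACGTG in 6.67% against 6.34%, and TGACNNNGC in 6.67% against 10.9%. Several windows can belong to 1 gene, so these shares are a description, with no test. Both genes that rose (UNG, MND1) and genes that were not called (MSH3, PMS2) held the E2F letters.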

How the data were processed

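Values are gene-level FPKM to 2 decimals, as the authors deposited them, for 9 libraries. The submitters' processing notes name fastp, StringTie and edgeR, without versions. Not given in the sources used here are the aligner, the genome build, the annotation and any use of strand in counting. Libraries were poly(A)-selected and made with dUTP in the second strand, per the labels' protocols.

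Symbols were found for 29784 of 41041 identifiers, and 41002 were in the table of names. Genes with a mean of at least 1 FPKM over the 9 libraries (12662) were taken as log2(FPKM + 1), a log2 scale computed here from the deposited FPKM, which shrinks the changes of low genes. All libraries entered 1 fit in limma 3.58.1 (R 4.3.3) with a mean-variance trend, with 6 residual and 3.2 prior degrees of freedom. The 3 contrasts were adjusted separately (Benjamini-Hochberg, all tested genes), with two-sided p values. A library that departs from its group widens the SE in all contrasts. With 3 libraries per group and no depth, precision rests on the spread between libraries. Partner ratios used FPKM without pseudocount. Alternatives, 21 per contrast, changed the pseudocount, filter, scaling, variance model, block and libraries, or fitted splines on GC content and transcript length in each library (GENCODE 29, 12504 genes). The series' design text calls the replicates biological. Nothing says whether they were separate cultures, and if they were not, p values measure technical spread only.

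The genes, lists and pairs were chosen with earlier results of these data known. Some genes of these pathways are not reported here and were left out of the lists. All libraries are printed for the 3 genes of each role (6 in homologous recombination) with the largest change in any contrast, and for 14 genes chosen by name. Figures were drawn with matplotlib 3.10.9 in Python 3.11.15.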

Additional observations from a re-analysis of the deposited data

How the results depend on the processing

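Of 43 tested repair genes, 16 with SFN and 29 with SFN+5-FU were called as reported and in every one of the 20 or 21 alternatives that tested them. With quantile normalization XRCC6 turned to -0.0023 and -0.022 against control (adjusted p = 0.971 and 0.701) and XRCC1 with SFN+5-FU to -0.15 (adjusted p = 0.0436). Requiring a mean of 5 FPKM, which tests fewer genes, left 3888 and 4903 genes called against control (6333 and 8387 as reported). Of the repair genes 16 and 18 then rose, where 2489 and 3189 of all 6939 genes tested were called higher. None fell with SFN+5-FU (0 in place of 2), because CHEK2 and TP53BP1, at means of 2.69 and 2.68 FPKM, were no longer tested. The median between the treated groups was 0.17 in place of 0.10. Pseudocount 5 gave repair gene medians of 0.21, 0.27 and 0.053 for SFN, SFN+5-FU and the difference between them. For SFN+5-FU against control the median of 0.56 became 0.66 with pseudocount 0.1, 0.49 with no filter, 0.47 with median-of-ratios scaling, 0.48 with mitochondrial genes left out of the scaling and 0.345 after the GC and length correction, which gave 0.043 between the treated groups. Between the treated groups library weights called 7432 genes, 16 repair genes higher and 7 lower. With only the 6 libraries compared 0 genes were called. The cause of these shifts was not tested, except where a setting tests fewer genes or samples.

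Leaving out 1 library at a time, 4845 to 7200 genes were called with SFN and 7287 to 9461 with SFN+5-FU. Of the repair genes 17 to 30 rose with SFN (median 0.32 to 0.47), and 28 to 33 rose and 1 to 2 fell with SFN+5-FU (median 0.48 to 0.58). Of all 12662 tested genes, 2590 to 3896 were called higher with SFN in these fits. With SFN+5-FU 4183 to 5496 of all genes were called higher and 3098 to 3965 lower. Between the treated groups 0 to 6478 genes were called, with 0 to 13 repair genes higher, 0 to 5 lower and a median of 0.0068 to 0.19. For partner ratios, the differences between group means of the log2 ratio were followed in the same way. Between the treated groups these differences ranged from -0.19 to 0.026 (BRCA1/BARD1), -0.049 to 0.084 (BRCA2/PALB2, and -0.015 with pseudocount 1) and -0.091 to 0.019 (XRCC5/XRCC6). Against control they ranged from -0.12 to 0.052 (MRE11/RAD50) and -0.058 to 0.16 (PARP1/PARP2) with SFN, and from -0.087 to 0.092 (RAD51C/XRCC3) with SFN+5-FU.

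The replicate numbers gave no sign of pairing: of 9 same-numbered pairs 1 had a correlation of deviations over 0.1 (range -0.14 to 0.11). Of 18 pairs with different numbers 3 did (range -0.25 to 0.18). With 3 libraries per group this cannot exclude a pairing. With the replicate number as a block 6038, 8151 and 0 genes were called in the 3 contrasts. There 27 and 30 repair genes rose against control, where 3295 and 4710 of all 12662 genes were called higher. With SFN+5-FU 2 repair genes fell, where 3441 of all genes were called lower, and 0 were called between the treated groups.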
